A study of Mus musculus with 99 samples.

Results

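Glycogen is the branched glucose store of the heart. It is built by glycogen synthase and the branching enzyme, broken down in the cytosol by glycogen phosphorylase, which phosphorylase kinase activates, and broken down in lysosomes by acid alpha-glucosidase. Stbd1 encodes a glycogen-binding membrane protein that tethers glycogen to autophagy vesicles. The other genes described here are Gys1 (glycogen synthase of muscle), Gbe1 (the branching enzyme), Pygb (the brain form of glycogen phosphorylase, which heart also makes), Phka1 (the muscle form of the alpha regulatory subunit of phosphorylase kinase) and Gaa (lysosomal acid alpha-glucosidase, deficient in human Pompe disease). These 6 of 11725 genes on the array were taken as a list, with all of their probe sets, 9 of 22327. A probe set is the group of short oligonucleotides that reads 1 transcript. Stbd1 (chromosome 5, probe set 1434442_at), Gbe1 (chromosome 16, 1420654_a_at), Pygb (chromosome 2, 1433504_at) and Gaa (chromosome 11, 1419428_a_at) have 1 each. Gys1 (chromosome 7) has 2, 1416737_at and 1450196_s_at, and Phka1 (chromosome X) has 3, 1422743_at, 1435567_at and 1422744_at. All 9 passed the filter on dim probe sets, which kept 13398.

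Transcript levels were measured with Affymetrix HT_MG-430A arrays in the hearts of male mice on a chow diet, untreated. The protocol in the labels gives an age of 16 weeks for all. A separate age label per sample goes against this: it runs from 16 to 50 weeks in BXH, 56 to 109 in BXD, 58 to 113 in AXB, 67 to 110 in BXA and 22 to 55 in the classical strains. It rises by 1 week in 97 of 98 steps along the sample order and was not used. Each of the 99 arrays holds 1 strain: 11 BXH, 30 BXD, 15 AXB and 13 BXA recombinant inbred strains, 28 classical inbred strains, as well as wild-derived CAST/EiJ and B6cC3-1/KccJ, which enter no comparison. Recombinant inbred strains descend from a cross of 2 inbred parents and are inbred again, so each carries a fixed mixture of both genomes. One parent was C57BL/6J throughout, and the other was C3H/HeJ (BXH), DBA/2J (BXD) or A/J (AXB and BXA, which differ in the direction of the cross). All 4 parents are among the classical strains. Values of near-isogenic strains were averaged into families, 29 in BXD and 13 in AXB. Per their names 2 BXD strains carry a further mutation: BXD24/TyJ-Cep290<rd16>/J, which was averaged with BXD24/TyJ, and BXD29-Tlr4<lps-2J>/J. With 1 array per strain, every SD, SE and p-value refers to differences from strain to strain, which include technical ones.

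Values are on the log2 scale, where 1 unit is a doubling. They ran from 2.40 to 13.70, and the number of arrays limits the precision. Of 7 cardiomyocyte markers, 6 are on the array, and their mean lay between 12.64 and 12.94 on every array. Markers of another organ (airway, liver, squamous epithelium, fast skeletal muscle or brown fat) were high on 44 of 99 arrays, that is, with a list mean over 2 log2 units higher than on the median array. These were 8 of 11 BXH, 10 of 30 BXD, 8 of 15 AXB, 6 of 13 BXA and 11 of 28 classical arrays. The airway list (6 of 7 genes on the array) had a median array of 7.64 in BXH, 3.36 in BXD, 3.33 in AXB, 3.42 in BXA and 4.02 in the classical strains. The numbers that serve as sample titles run from 3 to 394 in BXH, 473 to 670 in BXD, 481 to 683 in AXB, 518 to 674 in BXA and 40 to 456 in the classical strains. The labels do not say what these numbers count. In whole heart, fewer cells of a type and less RNA per cell cannot be told apart.

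The 9 probe sets covered much of the range of the array. The order of their mean levels over the 96 strain families was Pygb (10.93), Gys1 1416737_at (7.98), Gaa (7.36), Phka1 1422743_at (6.87), Gbe1 (6.43), Gys1 1450196_s_at (5.78), Phka1 1435567_at (5.77), Phka1 1422744_at (4.20) and Stbd1 (4.02). Levels of different probe sets depend on their oligonucleotides and are not compared further. Among the classical strains, Pygb had an SD of 0.65 and Stbd1 an SD of 0.63. These were larger than the SD of 96.6% and 96.2% of tested probe sets.

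**Figure D1:**
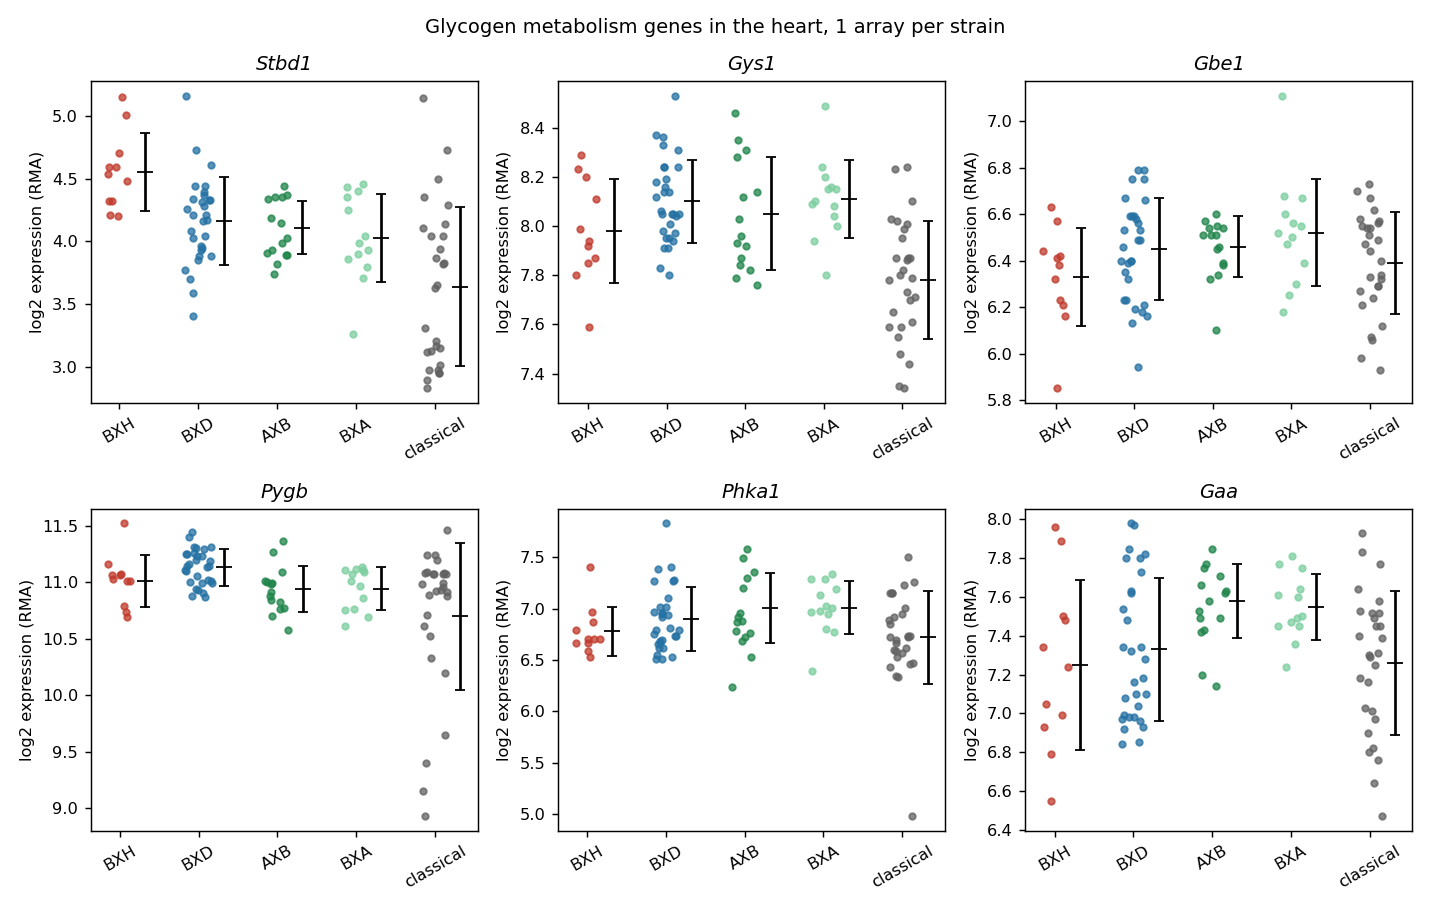
Log2 expression of the brightest probe set of each gene (y axis) in BXH, BXD, AXB, BXA and classical strains (x axis), 1 point per array. The bar beside each group is the mean ± SD over strain families. Stbd1 lies higher in BXH (mean 4.55) than in the other groups, 4 classical strains lie low for Pygb, and 1 lies low for Phka1.

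Stbd1 was higher in BXH strains than in every group it was compared with. The 11 BXH strains had a lowest, median and highest Stbd1 level of 4.20, 4.54 and 5.15. The 29 BXD families had 3.41, 4.17 and 5.16, the 26 AXB and BXA families 3.26, 4.01 and 4.46, and the 28 classical strains 2.83, 3.64 and 5.14. The ends of these ranges are single strains in 2 panels: BXD9/TyJ at 5.16 (other BXD arrays up to 4.73) and BXA13/PgnJ at 3.26 (other BXA arrays from 3.71). The groups overlap: 10 of 28 AXB and BXA arrays and 5 of 28 classical strains lay above the lowest BXH strain. Stbd1 was 1.4-fold higher in BXH than in AXB and BXA (log2 difference 0.49, SE 0.10, limma adjusted p = 0.00313). It was 1.31-fold higher than in BXD (0.39, SE 0.12, limma adjusted p = 0.0276) and 1.89-fold higher than in the classical strains (0.92, SE 0.19, limma adjusted p = 0.0205). The classical mean includes 13 strains under 3.59, the level of the filter on dim probe sets, with a median of 3.02. The other 15 classical strains, among them the parents of the panels, had a median of 4.04. Between BXD and AXB with BXA it differed by 0.09 (SE 0.09, limma adjusted p = 0.515, 95% interval of the difference -0.08 to 0.26).

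In BXH the title numbers and the airway list moved with the panel. The 3 BXH strains without markers of another organ had Stbd1 levels of 4.20 (BXH20/KccJ, the lowest of the panel), 4.59 (BXH10/TyJ) and 4.59 (BXH2/TyJ), and the other 8 ran from 4.21 to 5.15. With arrays that carry such markers left out, which leaves those 3, the differences were 0.37 against AXB and BXA, 0.21 against BXD and 0.93 against the classical strains, and none of the 3 passed the test (limma adjusted p = 0.449, 0.621 and 0.766). With the airway list as a covariate they were 0.38 and 0.79 against AXB with BXA and the classical strains (limma adjusted p = 0.0726 and 0.117), and 0.49 against BXD, where the call held (limma adjusted p = 0.0464). With the title number as a covariate the 3 differences were 0.59, 0.52 and 0.80 (limma adjusted p = 0.803, 0.873 and 0.162). With the Gapdh control difference, a measure of RNA quality, as a covariate, the difference from BXD was 0.32 (limma adjusted p = 0.133). The part of the title number in the difference from BXD, AXB and BXA cannot be told apart from the panel. The macrophage list had a median array of 6.44 in BXH, against 5.89 in BXD, 5.96 in AXB, 6.00 in BXA and 6.34 in the classical strains, and its part in the result was not tested.

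**Figure D2:**
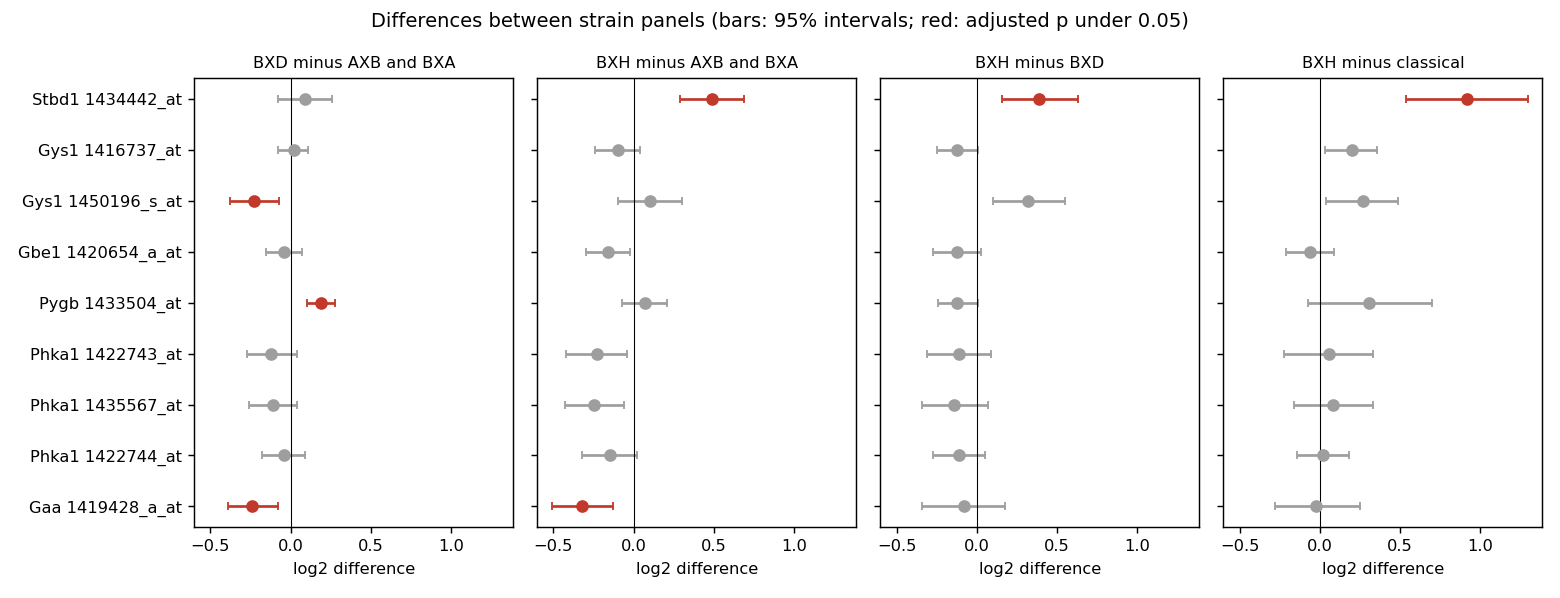
Log2 difference of each member probe set (x axis) in 4 comparisons of strain groups, with bars for the 95% interval (1.96 SE on each side). Red points passed the test at an adjusted p under 0.05: Stbd1 in each comparison that involves BXH, Gaa in both comparisons with AXB and BXA, and Pygb and Gys1 1450196_s_at between BXD and AXB with BXA.

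Each parent was measured on 1 array, so the error of the parental values was not measured. Stbd1 was 5.14 in DBA/2J, 4.50 in C3H/HeJ and 3.94 in A/J, against 3.82 in C57BL/6J. The DBA/2J difference of 1.32 compares with 5.04% of tested probe sets that differ by at least 1 log2 unit between these 2 arrays. BXD families lay mostly below the midpoint: 3 of 29 lay above its value of 4.48, and the panel mean of 4.16 was 0.32 below it. All 11 BXH strains lay above the parental midpoint of 4.16, and 6 of them above both parents. In AXB and BXA, 21 of 26 families lay above the midpoint of 3.88. The DBA/2J array has an airway list mean of 8.94, against 3.27 on the C57BL/6J array, the A/J array one of 6.34, and the C3H/HeJ array has a brown fat list mean of 9.01, against 5.26 on that of C57BL/6J.

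**Figure D3:**
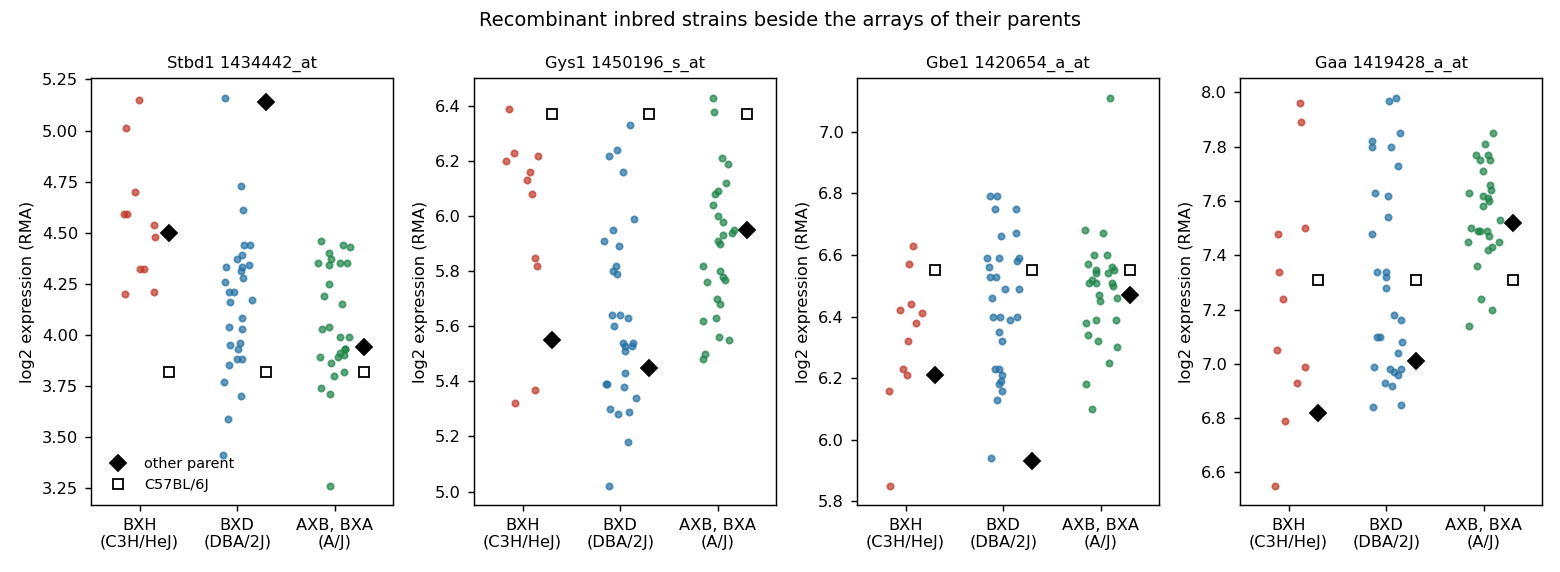
Log2 expression (y axis) of Stbd1, Gys1 1450196_s_at, Gbe1 and Gaa in BXH, BXD and AXB with BXA strains (x axis), 1 coloured point per array. Filled diamonds give the other parent (C3H/HeJ, DBA/2J or A/J), open squares C57BL/6J: for Stbd1 the DBA/2J array reads 5.14 and most BXD strains lie nearer to the C57BL/6J value of 3.82.

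Among the classical strains Stbd1 had a low and a high range. The low range held 13 strains, from 2.83 in NOD/ShiLtJ to 3.31 in NZW/LacJ. The remaining 15 ran from 3.63 in C57L/J to 5.14 in DBA/2J and include all 4 panel parents. The step between the ranges, 0.32, is narrower than the step of 0.41 that sets DBA/2J apart at the top, and than the range of 0.60 over the near-isogenic AXB19 strains. The low range was KK/HlJ (2.90), BUB/BnJ and MA/MyJ (2.95 each), LP/J and NZB/BlNJ (2.98 each), NON/ShiLtJ (3.02), FVB/NJ (3.12), SWR/J (3.13), 129X1/SvJ (3.15), RIIIS/J (3.17) and CE/J (3.21), besides the 2 strains named. All 13 lie under 3.59, the level of the filter on dim probe sets, so differences among them are near the lower end of the array. Markers of another organ were high on 5 of these 13 arrays and on 6 of the other 15.

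Scarb2, next to Stbd1 in the order of tested genes, largely followed the same split. Scarb2 encodes LIMP-2, a lysosomal membrane protein that carries beta-glucocerebrosidase to lysosomes. Its brighter probe set had a lowest, median and highest level of 9.30, 9.58 and 10.11 in the 13 low strains and 9.95, 10.20 and 10.74 in the other 15. The second probe set had 7.45, 8.21 and 8.57 in the low strains, against 8.56, 8.85 and 9.09 in the others. The ranges of the brighter probe set overlap, between 9.95 and 10.11, and those of the second meet, at 8.57 and 8.56. Over the 28 classical strains r with Stbd1 was 0.87 and 0.80 for the 2 probe sets (rho 0.78 and 0.82).

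Of 7512 other genes, Scarb2 had the pattern most like that of Stbd1 over the 94 families of the 5 groups, each group centred on its mean (r = 0.69). Mmp3, a matrix metalloproteinase (0.56), Man2a1, a Golgi mannosidase (0.54), Ly86, a partner of the RP105 receptor (0.42), and Slc39a14, a metal ion transporter (0.41), followed. The lowest were Ube2h (-0.41), Clip1 (-0.39) and Cmya5 (-0.38). Within the panels r of Scarb2 with Stbd1 was 0.34 in BXH, 0.10 in BXD, 0.32 in AXB and 0.52 in BXA. The other 9 genes in the window of 5 on each side of Stbd1 (Sdad1, Cxcl9, Art3, Nup54, Shroom3, Septin11, Ccni, Ccng2 and Cxcl13) had centred r between -0.15 (Septin11) and 0.14 (Cxcl13). Scarb2 passed the test in none of the 5 comparisons. Its brighter probe set differed by 0.31 (SE 0.12, limma adjusted p = 0.269) between BXH and the classical strains, and by 0.03 (SE 0.04, limma adjusted p = 0.739) between BXH and AXB with BXA. Strains share ancestry, so these correlations are descriptions.

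**Figure D4:**
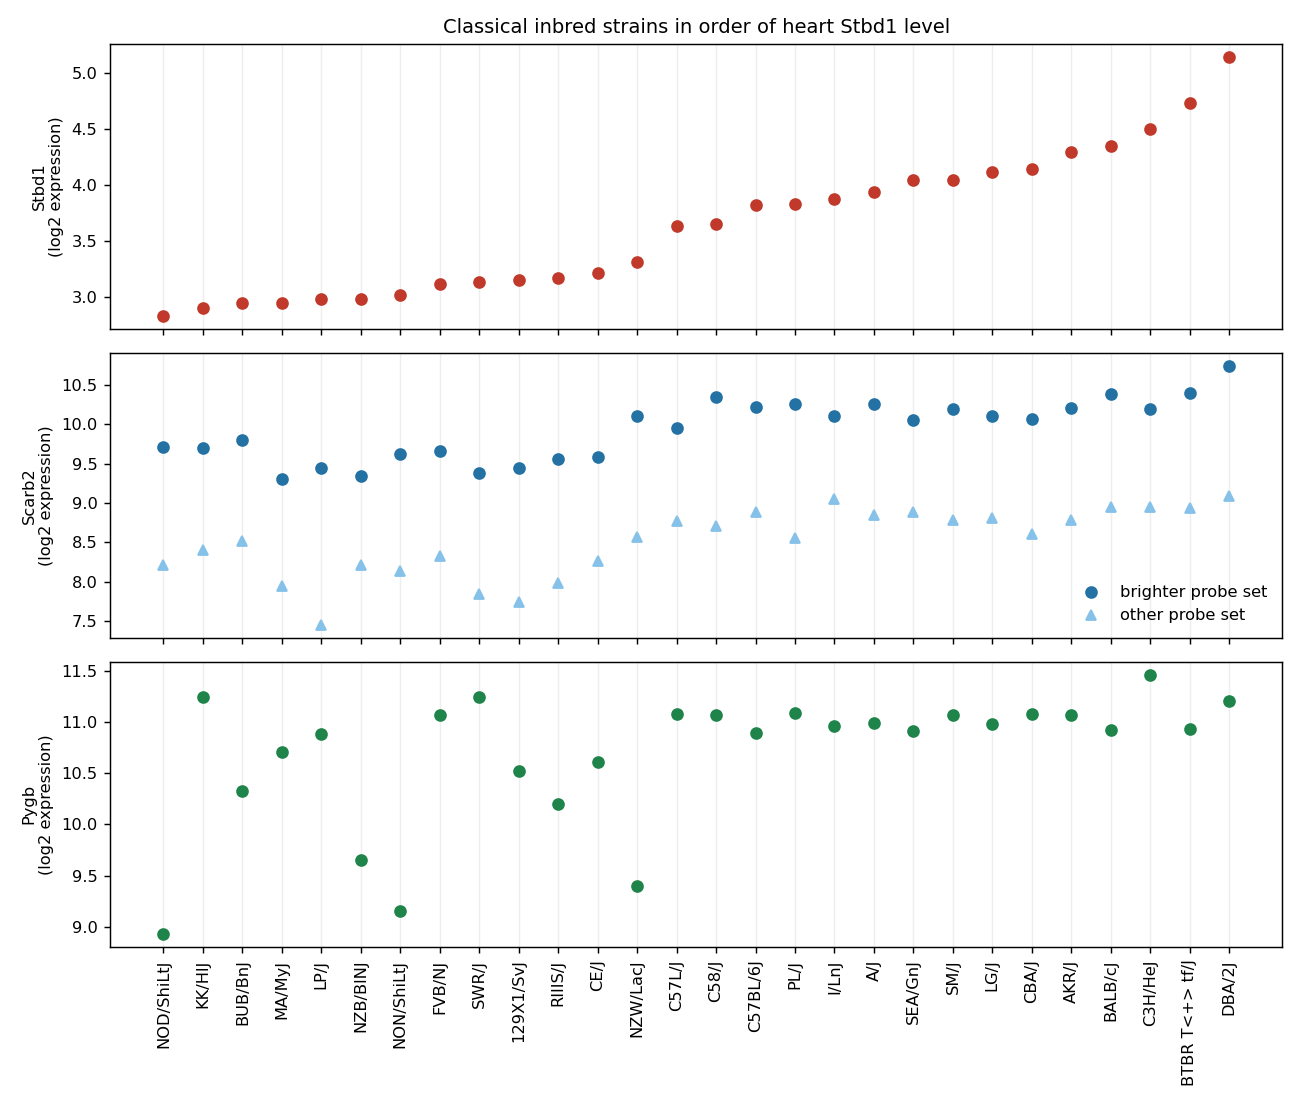
The 28 classical strains in order of Stbd1 level (x axis) with log2 expression (y axes) of Stbd1, Scarb2 and Pygb. Scarb2, next to Stbd1 in the order of tested genes, has both of its probe sets shown. The 13 strains with Stbd1 at or under 3.31 include most of the low Scarb2 values and the 6 lowest Pygb values.

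Gys1 was read by 2 probe sets that followed each other weakly (centred r = 0.26 over 94 families). The brighter, 1416737_at, had a median of 7.94 in BXH, 8.05 in BXD, 7.96 in AXB, 8.10 in BXA and 7.80 in the classical strains. It passed the test in no comparison. The second, 1450196_s_at, whose suffix marks oligonucleotides that can read several transcripts, averaged 5.65 ± 0.33 in BXD and 5.88 ± 0.26 in AXB and BXA (SD, n = 29 and 26). It was lower in BXD (log2 difference -0.23, SE 0.08, limma adjusted p = 0.0454), where 1416737_at differed by 0.02 (SE 0.05, limma adjusted p = 0.871). With the Gapdh covariate the difference of 1450196_s_at was -0.02 (limma adjusted p = 0.942), without a filter on dim probe sets it was -0.23 (0.067) and without arrays with markers of another organ -0.27 (0.0937). That control difference (3 prime minus 5 prime) averaged -0.22 in BXD, -0.32 in AXB and -0.30 in BXA. On 1450196_s_at DBA/2J read 5.45, C3H/HeJ 5.55 and A/J 5.95, against 6.37 in C57BL/6J, the highest classical level. Of BXD families, 6 of 29 lay above the parental midpoint of 5.91.

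Gbe1 passed the test in no comparison. Its median was 6.38 in BXH, 6.49 in BXD, 6.51 in AXB, 6.52 in BXA and 6.42 in the classical strains, and all group ranges overlap. The difference nearest to the threshold was between BXH and AXB with BXA, -0.16 (SE 0.07, limma adjusted p = 0.193). DBA/2J had the lowest classical level, 5.93, against 6.55 in C57BL/6J. In BXD, 21 of 29 families lay above the midpoint of 6.24, 11 above both parents and 0 below both. Single strains lay apart: BXA25/PgnJ read 7.11, against 6.18 to 6.68 in the other BXA strains, BXH8/TyJ 5.85, against 6.16 to 6.63 in the other BXH strains, and BXD2/TyJ 5.94.

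Pygb was slightly higher in BXD than in AXB and BXA. It averaged 11.13 ± 0.16 in BXD and 10.94 ± 0.19 in AXB and BXA (SD, n = 29 and 26), 1.14-fold higher in BXD (log2 difference 0.19, SE 0.05, limma adjusted p = 0.00394). The difference was 0.15 (adjusted p = 0.145, limma) without arrays that carry markers of another organ and 0.13 (adjusted p = 0.137, limma) with the Gapdh covariate. C3H/HeJ had the highest classical level, 11.46, against 10.89 in C57BL/6J, yet 1 of 11 BXH strains lay above the midpoint of 11.18.

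Much larger was the spread of Pygb among classical strains. NOD/ShiLtJ had a level of 8.93, NON/ShiLtJ 9.15, NZW/LacJ 9.40 and NZB/BlNJ 9.65, and the other 24 strains ran from 10.20 to 11.46 with a median of 10.98. Each value is 1 array with no replicate check. Against the median of the other classical strains, NOD/ShiLtJ was 4.07-fold lower (log2 difference -2.03) and NON/ShiLtJ 3.5-fold (-1.81). NZW/LacJ was 2.95-fold lower (-1.56) and NZB/BlNJ 2.48-fold (-1.31). Of all tested probe sets, 0.493%, 0.515%, 0.806% and 1.32% were lower by at least 1 log2 unit in these 4 strains, in the same order. Pygm, the muscle form of the phosphorylase, read 10.28, 10.31, 10.46 and 10.38 in the 4 strains, beside a range of 10.18 to 10.52 over the other classical strains of each. Markers of another organ were high on the NOD/ShiLtJ array (airway, squamous epithelium and fast skeletal muscle) and the NZW/LacJ array (airway), and on neither of the arrays of NON/ShiLtJ and NZB/BlNJ. All 6 strains with the lowest Pygb levels, which add RIIIS/J (10.20) and BUB/BnJ (10.33), are among the 13 strains of the low Stbd1 range. CAST/EiJ, outside the classical group, also read low, at 9.82, on an array where 4.64% of tested probe sets were lower by at least 1 log2 unit.

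Phka1 passed the test in no comparison on any of its 3 probe sets. Its brightest probe set had a median of 6.70 in BXH, 6.81 in BXD, 6.92 in AXB, 7.01 in BXA and 6.72 in the classical strains. The 3 probe sets followed each other (centred r = 0.71, 0.70 and 0.61 over 94 families). BXD28 had the highest BXD level on all 3, at 7.83, 6.57 and 4.90. On the brightest, BXH10/TyJ read 7.41, against 6.53 to 6.97 in the other BXH strains, AXB12/PgnJ 7.58 and BXA2/PgnJ 6.39, against 6.77 to 7.34 in the other BXA strains. The difference nearest to the threshold was that of 1435567_at between BXH and AXB with BXA, -0.25 (SE 0.10, limma adjusted p = 0.126).

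One classical strain stood far below the others on the brighter Phka1 probe sets. I/LnJ is known as a strain with X-linked deficiency of muscle phosphorylase kinase, caused by a mutation in Phka1. On 1422743_at it read 4.98, against 6.33 to 7.50 in the other 27 strains (median 6.72), a 3.35-fold lower level. On 1435567_at it read 4.35, against 5.05 to 6.32, a 2.5-fold lower level, and on 1422744_at 3.65, against 3.74 to 4.51. I/LnJ was the lowest classical strain on all 3. On 1422744_at the step to the next strain is small, near the filter level of 3.59, and narrower than the range of 0.48 over the near-isogenic AXB19 strains. AXB19/PgnJ read lower there, at 3.48. The differences from the median of the others were -1.74, -1.32 and -0.45. They ranked 15, 35 and 504 from the lowest among 13398 probe sets of I/LnJ, of which 0.545% were lower by at least 1 log2 unit. This is a single array with no replicate check. No list of markers of another organ was high on it.

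The other subunits of the kinase, and the other phosphorylases, lay inside the range of the other classical strains in I/LnJ. Phka2, the liver alpha subunit, read 6.40 (difference from the median of the others 0.15), Phkb, the beta subunit, 7.15 (-0.05), and Phkg2, a catalytic subunit, 4.90 (0.12). Phkg1, the muscle catalytic subunit, read 5.34 (-0.35), inside the range of 3.27 to 6.40. Pygm read 10.25 (-0.12), and Pygl, the liver phosphorylase, 6.41 (1.34), below the highest classical value of 7.62.

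**Figure D5:**
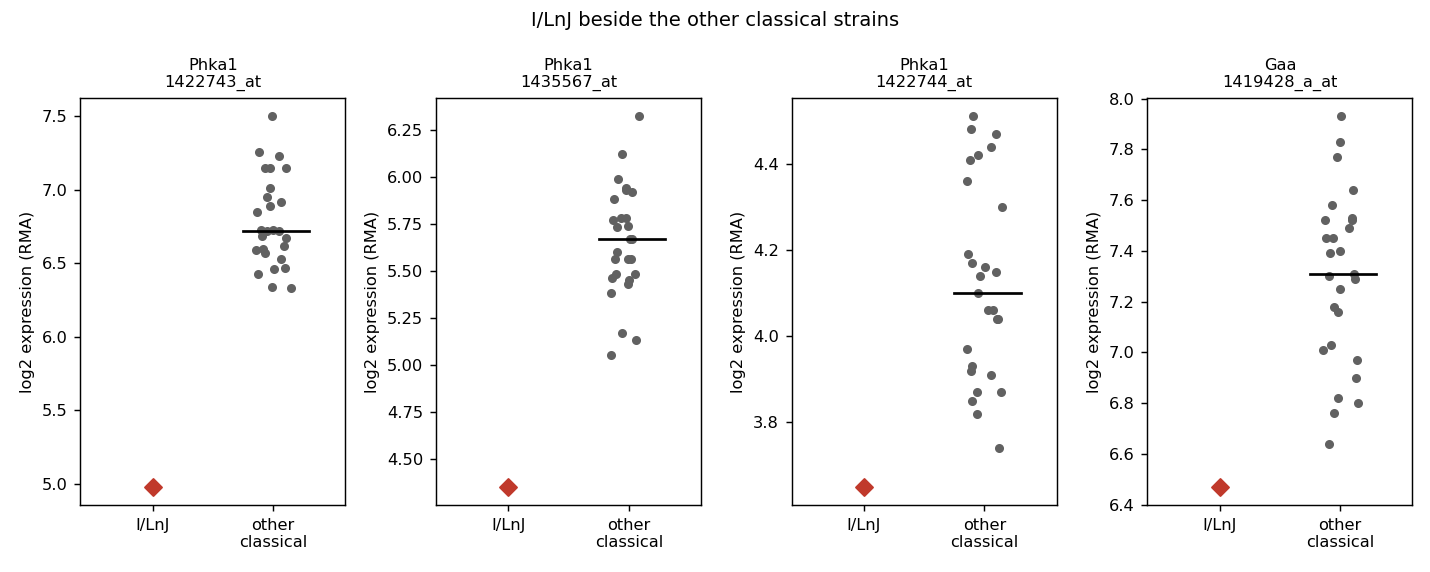
Log2 expression (y axes) of the 3 Phka1 probe sets and of Gaa in I/LnJ (red diamond, 1 array) and in the other 27 classical strains (grey points, line at the median). I/LnJ lies below every other classical strain in each panel, at 4.98 on the brightest Phka1 probe set and at 6.47 for Gaa.

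Gaa was lower in both BXD and BXH than in AXB and BXA. The lowest, median and highest levels were 6.55, 7.24 and 7.96 in BXH, 6.84, 7.28 and 7.98 in BXD, 7.14, 7.59 and 7.85 in AXB and BXA, and 6.47, 7.30 and 7.93 in the classical strains. The top of the ranges is shared, and the lower ends differ. Against AXB and BXA, Gaa was 1.18-fold lower in BXD (-0.24, SE 0.08, limma adjusted p = 0.0333) and 1.25-fold lower in BXH (-0.32, SE 0.10, limma adjusted p = 0.0468). Both comparisons share the AXB and BXA arrays. Without arrays that carry markers of another organ the differences were -0.19 and -0.33 (limma adjusted p = 0.272 and 0.555), and with the title number as a covariate that of BXH was -0.01 (limma adjusted p = 0.999). The BXH difference also missed the threshold with the airway list as a covariate, without a filter and with every array on its own (limma adjusted p = 0.142, 0.0664 and 0.0576). The AXB and BXA parent A/J read 7.52, DBA/2J 7.01 and C3H/HeJ 6.82, against 7.31 in C57BL/6J. Families above both parents numbered 14 of 29 in BXD, 5 of 11 in BXH and 14 of 26 in AXB and BXA, and families below both 9, 2 and 2. The highest BXD level was that of BXD29-Tlr4<lps-2J>/J (7.98) and the highest BXH level that of BXH9/TyJ (7.96). I/LnJ had the lowest classical level of Gaa, 6.47 (-0.84 from the median of the others), and NZW/LacJ the next, 6.64.

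In all, 3 of 9 member probe sets passed the test between BXD and AXB with BXA, where 14.3% of all tested probe sets did. Of these, 1 was higher (7.52% of all tested) and 2 were lower (6.78%). Between BXH and AXB with BXA 2 of 9 passed (background 5.61%), 1 higher (2.64%) and 1 lower (2.96%). Between BXH and BXD 1 of 9 passed (9.9%) and was higher (4.52%, with 5.38% lower), and between BXH and the classical strains 1 of 9 passed (0.179%) and was higher (0.0522%, with 0.127% lower). These comparisons share panels and are not independent. The members were chosen with earlier results of these data known, so these shares are descriptions. Between the reciprocal panels AXB and BXA 0 of 9 passed with limma (0.0% of all tested probe sets, of which 1370 had an unadjusted p under 0.05). The largest member difference there was -0.23 for Gys1 1450196_s_at (unadjusted p = 0.0164 in the limma fit). Between parents, DBA/2J and C57BL/6J differed by at least 0.5 log2 units on 3 of 9 member probe sets (23.5% of all tested), C3H/HeJ and C57BL/6J on 4 of 9 (23.2%), and A/J and C57BL/6J on 4 of 9 (13.2%), of which 3 are the probe sets of Phka1. No member differed by as much as 1 log2 unit between C3H/HeJ and C57BL/6J or between A/J and C57BL/6J, where 4.81% and 2.6% of all tested probe sets did.

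The wider pathway list held 38 genes on the array, of 50 listed, and 35 were tested. The lists were chosen with earlier results of these data known, so the shares given below are descriptions and not a test of the pathway. Between BXD and AXB with BXA 8 were higher and 2 lower, 28.6% of the list beside 14.3% of all probe sets. The list holds the brightest probe set of each gene. In a fit of the brightest probe set of every gene the share was 14.6% here. It was 6.52% for BXH minus AXB and BXA, 10.6% for BXH minus BXD and 0.293% for BXH minus classical. Of 9 tested genes of glycogen breakdown, 4 were higher and 1 lower in BXD than in AXB with BXA (55.6%, beside 14.3% of all probe sets). Phkg1, the muscle catalytic subunit of phosphorylase kinase, had the largest difference, a level of 5.67 in BXD and 4.48 in AXB and BXA (1.20, SE 0.16, limma adjusted p = 5.19e-07). Its probe set can read several transcripts. The medians of Phkg1 were 3.96 in AXB and 3.98 in BXA, with arrays up to 5.87 and 6.06. BXD arrays ran from 5.02 to 6.53, so the ranges overlap. Smaller differences were those of Phka2 (0.24), Phkg2 (0.20) and Pgm2, of the phosphoglucomutase family (0.16), of Prkag2 (0.35) and Prkab1 (0.32), subunits of AMP-activated protein kinase, and of Ppp1r3f, a glycogen-targeting subunit of protein phosphatase 1 (0.16). Lamp2, a lysosomal membrane protein whose loss gives Danon disease in humans, was lower (-0.14). In this comparison 1916 probe sets passed, against 681 with the Gapdh covariate and 1109 without arrays with markers of another organ. Of the members on the list, Pygb missed the threshold under both alternatives and Gaa under the latter. The other genes of the list were read only in the fit without covariates.

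Between BXH and AXB with BXA 3 of the 35 genes were higher and 2 lower, 14.3% of the list beside 5.61% of all probe sets. They were Stbd1, Phkg1 (1.45, SE 0.26, limma adjusted p = 0.000745) and Pgm2 (0.29), and Gaa and the glucose transporter gene Slc2a1 (-0.33). For Phkg1 the BXH arrays ran from 5.24 to 7.07 and also overlap those of AXB and BXA. Between BXH and BXD 1 was higher, Stbd1, and 5 were lower, 17.1% of the list beside 9.9% of all probe sets. Of the 4 tested genes of glucose entry, 3 were lower in BXH than in BXD (75.0%, beside 9.9% of all probe sets). They were Slc2a1 (-0.36, SE 0.11), Slc2a4, the insulin-responsive transporter (-0.23, SE 0.07), and Hk2, a hexokinase (-0.33, SE 0.07). BXH and the classical strains, whose title numbers overlap, read 6.00 and 6.00 for Slc2a1, 9.63 and 9.60 for Slc2a4, and 9.41 and 9.34 for Hk2. With the title number as a covariate 0 probe sets passed between BXH and BXD, so no gene of the list did. The title numbers of these panels do not overlap, so title number and panel cannot be told apart here. Apart from the members, single genes of the list were not read in the fit without arrays with markers of another organ. Phka2 (-0.32) and Prkab1 (-0.36) were the other genes lower in BXH than in BXD. Between BXH and the classical strains Stbd1 alone of the 35 passed (2.86% beside 0.179%), and between AXB and BXA 0 passed with limma.

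Few pairs of the genes had a correlation from strain to strain that passed a test. With 1 array per strain, low correlations do not show that the genes vary independently. Over 94 families, centred on group means, 15 pairs of genes were compared by permutation, two-sided. The permutation treats the strains of a group as exchangeable, although they share ancestry. By Spearman's rho 2 of 15 pairs had an adjusted p under 0.05, and by Pearson's r 0 of 15. Gbe1 and Phka1 had rho = 0.39 (permutation p = 0.00011, adjusted 0.00165) and r = 0.28 (permutation p = 0.00549, adjusted 0.0823), with r between 0.10 in AXB and 0.47 in BXA. Without the 2 families farthest from the median of Gbe1, r was 0.26. Pygb and Phka1 had rho = -0.33 (permutation p = 0.00133, adjusted 0.00997) and r = -0.30 (permutation p = 0.0242, adjusted 0.0921). Without the 2 families farthest from the median of Pygb, r was -0.17. The pair missed the threshold without arrays with markers of another organ (rho = -0.32, permutation, adjusted p = 0.175) and without centring on group means (-0.26, 0.0915). For this pair r was negative in all 5 groups, from -0.56 in AXB to -0.30 in BXD and the classical strains.

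Stbd1 and Pygb did not pass the adjusted threshold (r = 0.31, permutation p = 0.0245, adjusted 0.0921; rho = 0.16, adjusted 0.558). Within groups r was 0.54 in the classical strains, -0.38 in BXH, -0.29 in BXD, -0.29 in AXB and -0.40 in BXA. The pooled value therefore has the sign of the classical strains alone. These groups share laboratory ancestry, and the difference between them was not tested.

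Each gene had other genes that followed it across the 94 families. The closest to Gys1 were Ptpn11 and Lrg1 (r = 0.62 each), Aars and Mt1 (0.55 each) and Prodh (0.54). The closest to Gbe1 were the proteasome gene Psma1 (0.57), Sar1b and Mtx2 (0.56 each), Psmd8, also of the proteasome (0.55), and Higd1a (0.54). Pygb was closest to Tapbp (0.56), Kcna5 (0.50), Dnajb6 (0.49), Lrrc61 and Nfe2l1 (0.48 each). Phka1 was closest to Ctnnal1 (0.44), Sms (0.40), Gmnn and Vma21 (0.39 each) and Hspb7 (0.38), and Gaa to Eif4a3 (0.51), Pank1 (0.47), Prpf40b (0.45), Usp36 (0.44) and Hsd17b11 (0.43). Of the 50 genes closest to Gaa, 9 are on its own chromosome 11 (18.0%, beside 8.63% of the 7512 genes), and of those closest to Phka1 6 are on the X chromosome (12.0%, beside 2.78%). For the others the shares were 6.0% beside 6.31% (Stbd1), 8.0% beside 7.37% (Gys1), 6.0% beside 3.29% (Gbe1) and 8.0% beside 8.04% (Pygb).

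The near-isogenic strains give the only hint of how far nearly the same genome varies between arrays. Over AXB19, AXB19a and AXB19b, Stbd1 ran from 3.74 to 4.34, a range of 0.60, beside a median range of 0.38 over tested probe sets. Phka1 1435567_at had the widest range of the members there, 0.82. In the BXD24 pair, of which 1 strain carries the Cep290 mutation, Stbd1 differed by 0.41, beside a median of 0.18, and Gbe1 by 0.01. Phka1 differed by 0.59 on 1422743_at but by 0.02 on each of 1435567_at and 1422744_at.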

How the data were processed

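The authors deposited a table of log2 expression values with 22416 probe sets, including 89 controls. It was made with GCOS and RMA (versions not stated), per the submitters' processing notes. RMA includes background correction and quantile normalisation, so arrays share 1 distribution of values. Scanner files were not analysed here, so signal over background and bases that differ between strains under the probes were not examined. Gene names came from the annotation of the platform, in which 17783 probe sets carry a single symbol and 284 several. The build behind the files is not stated, so gene order was read from a RefSeq gene list and coordinates are not printed. The age label was not used.

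Strains were grouped by name. Each comparison was fitted on its own groups with limma 3.58.1 in R 4.3.3 (lmFit, eBayes, no covariate) over 13398 probe sets with a mean above the 40th percentile (3.59 log2 units), with calls at 0.05 after Benjamini-Hochberg adjustment. Correlations used 100000 permutations within groups. Python 3.11.15, numpy 2.4.6, scipy 1.17.1, pandas 2.3.3 and matplotlib 3.10.9 served for the remaining steps. The limma fit was also run on simulated data, with independent normal noise of equal SD in both groups for each probe set. That run does not cover unequal spread between groups or probe sets that vary together.

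The members and lists were chosen with earlier results of these data known. By rule the text names every member probe set, called genes of the pathway lists, the 5 genes most like each member (3 lowest for Stbd1), the 5 tested genes on each side of Stbd1, and may name strains over 0.5 log2 units from their group median. The other subunits and phosphorylases in single strains, and the overlap of low strains, were chosen after their values were seen. Alternatives changed the filter, the probe set per gene, the averaging, the centring, the variance model, the arrays with markers of another organ, and covariates for the Gapdh control, the title number and (added after seeing the data) the airway list.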

Additional observations from a re-analysis of the deposited data

Results flagged for a closer look

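CAST/EiJ, the wild-derived strain that enters no comparison, read 7.56 on the brightest Phka1 probe set, above all 28 classical strains (4.98 to 7.50). It drew attention because this array lies outside the groups compared. On the other Phka1 probe sets CAST/EiJ read 5.66 and 4.14, inside the classical ranges of 4.35 to 6.32 and 3.65 to 4.51. The array carries high airway (9.32), liver (10.43) and fast skeletal muscle (9.75) marker lists, whose part in this value was not tested.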

How the results depend on the processing

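Of 355 differences and rank correlations of the members recomputed under an alternative, 320 kept their direction and side of the threshold, 22 lost the call and 13 changed sign. None of these 13 had passed the test, and the causes were not tested. With the Gapdh covariate, BXD minus AXB and BXA became -0.02 for Gys1 1416737_at, 0.03 for Gbe1 and 0.02 for Phka1 1422744_at. Without arrays with markers of another organ, BXH minus AXB and BXA became 0.06 for Gys1 1416737_at and -0.0029 for Pygb, and BXH minus BXD 0.01 for Gys1 1416737_at. With the title number, BXH minus AXB and BXA became 0.14 for Gys1 1416737_at and 0.20 for Phka1 1435567_at, and BXH minus BXD 0.37, 0.55 and 0.24 for the 3 Phka1 probe sets and 0.02 for Gaa. With the airway list, BXH minus classical became 0.02 for Gaa. Stbd1 kept its call under 6 of 9 alternatives in each BXH comparison. Gaa kept it under 9 of 10 (BXD) and 5 of 10 (BXH), Pygb under 8 of 10 and Gys1 1450196_s_at under 6 of 9. The counts of called probe sets that moved by over 1.5 times from 1916, 751, 1327 and 24 follow. With the brightest probe set per gene, where 7513 are tested, they were 1099 (BXD minus AXB and BXA), 490 (BXH minus AXB and BXA) and 799 (BXH minus BXD). Without arrays with markers of another organ, which leaves 3 BXH strains, they were 1109, 21, 116 and, for BXH minus classical, 1. With the Gapdh covariate they were 681 (BXD minus AXB and BXA), 791 (BXH minus BXD) and 39 (BXH minus classical). With the title number they were 1 (BXH minus AXB and BXA), 0 (BXH minus BXD, limma, 820 at an unadjusted p under 0.05) and 4 (BXH minus classical). With the airway list they were 248, 384 and 10 for the same 3 comparisons. The pairs of genes called by rho fell to 1 without centring and to 1 without arrays with markers of another organ, where rho of Pygb and Phka1 was -0.26 and -0.32 (permutation, adjusted p = 0.0915 and 0.175). No paired analysis was possible because each array holds a different strain. The number of strains, 1 array each, and the dim level of Stbd1 limit the precision.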

Other observations

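Some genes near Pygb ran the other way in the 4 classical strains with low Pygb. They were chosen after their values had been seen. Of the 10 tested genes in the window of 5 on each side, 5 had a negative r with Pygb over the classical strains (Cst3, Apmap, Abhd12, Gins1 and Fkbp1a) and 5 a positive one, from 0.07 (Nanp) to 0.31 (Entpd6, next to Pygb). Apmap, an adipocyte plasma membrane-associated protein gene, had a lowest, median and highest level of 7.40, 8.01 and 8.29 in the 4 strains and 6.70, 7.09 and 7.59 in the other 24. Abhd12 is a lipid hydrolase gene next to Pygb in the order of tested genes. On its brighter probe set it had 7.89, 8.16 and 8.24 in the 4 strains and 7.47, 7.76 and 8.14 in the others. Over the 28 classical strains r with Pygb was -0.75 for Apmap and -0.62 for Abhd12. Of the tested Fkbp1a probe sets, the brightest had r = -0.65 and the others r = -0.12 and -0.06.

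Some genes of the wider list stood apart on single arrays, again chosen after their values were seen. Gyg, which encodes glycogenin, the primer of glycogen synthesis, read 5.56 in AXB1/PgnJ, against 8.30 or more on every other array (median 8.70). That array has a high airway list (10.56), and Gys1 1416737_at was at its highest AXB level there, 8.46. BXD27/TyJ had the highest BXD levels of Gabarapl1, which binds Stbd1 (11.47, against 9.26 to 10.74 in the other BXD strains), and of the lysosomal protease gene Ctsl (12.16, against 10.30 to 11.45). That array also has a high airway list (6.82). In CAST/EiJ, Phka2 (5.05), Phkb (6.32) and Pygm (9.90) each lay below all 28 classical strains. Their differences from the classical median ranked only 362, 823 and 2322 from the lowest among 13398 probe sets of this array. It carries high airway (9.32), liver (10.43) and fast skeletal muscle (9.75) lists. Bases that differ under the probes in this wild-derived strain were not examined.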
